A study of Mus musculus with 6 samples.

Results

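Cadherins are calcium-dependent adhesion proteins that hold neighbouring cells together. The genes described here are 10 cadherins, Cdh1, Cdh2, Cdh5, Cdh11, Cdh13, Cdh17, Cdhr2, Cdhr5, Dsc2 and Dsg2, out of 19505 genes with a named probe set on the array. They were chosen by gene symbol in the platform annotation, and each of the 10 had a single probe set. Classical cadherins bind the same cadherin on the next cell and are anchored to actin through catenins, so that cells carrying E-cadherin tend to form epithelia and cells carrying N-cadherin form muscle and nerve tissue. Desmosomal cadherins are anchored to intermediate filaments instead, and a small group of microvillar cadherins links the tips of brush border microvilli.

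RNA was hybridised to 6 single-colour arrays. The 3 arrays titled PBS came from C57BL/6J control mice, and the labels do not say whether these mice were gavaged. The other 3 came from C57BL/6J mice that received MBELN, exosome-like nanoparticles from mulberry bark, by mouth over 7 days. All 6 samples are labelled as colon crypt, the gland of the large bowel epithelium, and no age is given. Nothing in the labels says that the 3 arrays of a group are 3 mice. A p-value here covers the spread between samples, which includes the differences in tissue markers within each group given below. The rest of that spread may be technical rather than between mice. Values are the deposited ones, read as log2, and having 3 arrays a group limits how precise each comparison can be.

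Markers of the labelled tissue were not present in every array. Of 15 gut epithelial markers, 14 or 15 lay above background in the PBS arrays, against 11, 3 and 12 in MBELN 1, MBELN 2 and MBELN 3. Background was taken from odorant and pheromone receptor genes, which serve the nose: the 95th percentile of their probe sets, called the receptor level from here on, lay between 3.99 and 4.44 over the arrays. The log2 of the summed gut epithelial signal ranged from 22.14 to 22.74 in PBS and from 7.77 to 13.48 in MBELN. All 15 heart muscle markers were above the receptor level in MBELN 1 and MBELN 3, where their summed signal was 22.12 and 22.34, against 9.08 to 11.38 in the other 4 arrays. All 11 neuronal and all 9 glial markers were above it in MBELN 2. All 9 colon epithelial markers were above it in PBS 2, against 4 in PBS 1 and 5 in PBS 3. In MBELN 1, MBELN 2 and MBELN 3, 3, 2 and 2 of them were above it. Paneth cells belong to small intestinal crypts, and 6 of 6 of their markers were above it in PBS 1 and PBS 3, against 1 in PBS 2. In the MBELN arrays, 4, 1 and 3 of the 6 were above it. Of 10 small intestinal enterocyte markers, 9, 7 and 9 were above it in the PBS arrays and 10, 3 and 10 in the MBELN arrays. The log2 of their summed signal was 22.03, 16.69 and 21.96 in PBS and 16.37, 7.20 and 14.34 in MBELN. The arrays therefore differ in tissue markers as well as in treatment label, and the 2 cannot be told apart in any difference between the groups given here. In such bulk RNA, fewer cells of a type and less RNA per cell cannot be told apart either.

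**Figure D1:**
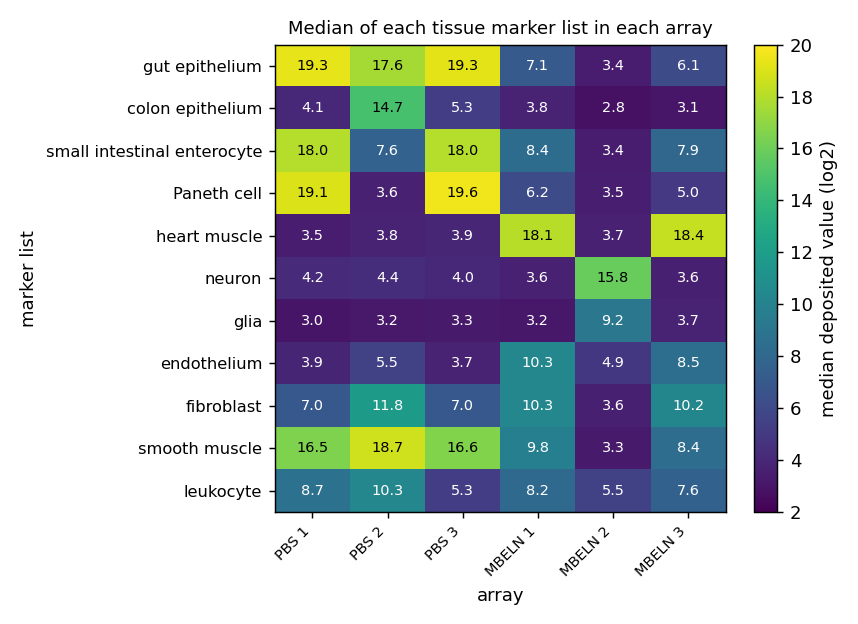
Median deposited value (log2) of each tissue marker list (rows) in each of the 6 arrays (columns), printed in each cell and shown by colour. Heart muscle markers are high in MBELN 1 and MBELN 3, neuronal markers in MBELN 2, Paneth cell markers in PBS 1 and PBS 3, and colon epithelial markers in PBS 2.

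The comparison of MBELN with PBS asked which transcripts differ after the treatment. Of the 10 cadherins, Cdh1, Cdh17, Cdhr2 and Cdhr5 were lower and Cdh2 was higher in the arrays labelled MBELN, and the other 5 did not pass an adjusted p of 0.05 (limma, Benjamini-Hochberg adjustment over 22206 probe sets). Over all probe sets, 5.18% passed, 3.76% lower and 1.42% higher. The groups did not overlap for 9 of the 10 cadherins, 6 lower and 3 higher. Over all probe sets 25.3% did not overlap, 13.4% lower and 11.9% higher. The median difference was -6.58 over the 10 cadherins and 0.09 over all probe sets. Before adjustment, all 10 had a p under 0.05 (limma), 6 of them lower and 4 higher in MBELN, against 17.8% of all probe sets, 10.6% lower and 7.21% higher.

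**Figure D2:**
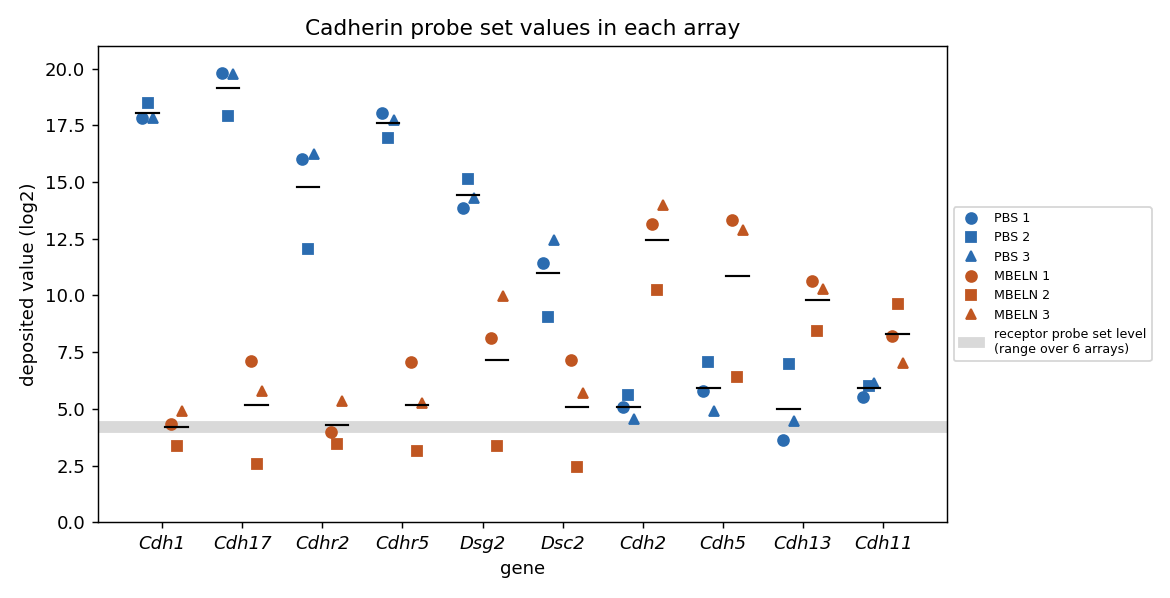
Deposited value (log2) of the 10 cadherins in each array, PBS in blue and MBELN in orange, with 1 symbol shape per replicate number and a black line at each group mean. The grey band spans the receptor level over the 6 arrays. The first 6 genes are higher in each PBS array than in any MBELN array, and of the last 4 all but Cdh5 are higher in each MBELN array.

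Cdh1 encodes E-cadherin, the adherens junction cadherin of epithelial cells. It read 17.82, 18.47 and 17.83 in PBS 1, PBS 2 and PBS 3, and in the MBELN arrays, in the same order of replicates as for each gene that follows, 4.34, 3.35 and 4.89. The 3 PBS values lay within 1 log2 unit of each other, although these arrays differed in their small intestinal and colon markers. The values of MBELN 1 and MBELN 2 were below the receptor level and that of MBELN 3 just above it. Cdh1 fell by 13.85 ± 0.48 (log2, SE, n = 3), with an adjusted p of 0.000493 by limma, and the call held when any 1 array was left out. Since 2 of the 3 MBELN values were not above background, the size of this difference is uncertain.

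Cdh17, the liver-intestine cadherin, mediates adhesion between intestinal epithelial cells without the catenin-binding tail of the classical cadherins. It read 19.81, 17.89 and 19.74 in the PBS arrays and 7.13, 2.58 and 5.78 in the MBELN arrays. PBS 2 was the lowest of the PBS arrays, and PBS 1 and PBS 3 were near the highest value of the table, 19.93, so that differences may be understated. Among the MBELN arrays, MBELN 2 was below the receptor level and the others above it. Cdh17 fell by 13.98 ± 1.27 (log2, SE, n = 3), with an adjusted p of 0.00463 by limma, and this call also held without any 1 array.

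Cdhr2 and Cdhr5 encode the pair of microvillar cadherins that bind each other between neighbouring microvilli and pack the brush border. Their promoters are shown because these genes are the 2 members with an entry in the RefSeq promoter table. The sequences are the 250 bases before the start on build GRCm38.p6, 5′ to 3′ on the gene's strand, with matches to the searched motifs in capitals.
Cdhr2, chr13:54701213-54701462, plus strand: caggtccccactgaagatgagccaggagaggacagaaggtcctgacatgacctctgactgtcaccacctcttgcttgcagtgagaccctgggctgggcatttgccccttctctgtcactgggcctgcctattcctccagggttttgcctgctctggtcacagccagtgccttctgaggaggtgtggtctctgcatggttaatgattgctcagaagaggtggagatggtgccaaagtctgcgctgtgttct
Cdhr5, chr7:141276787-141277036, minus strand: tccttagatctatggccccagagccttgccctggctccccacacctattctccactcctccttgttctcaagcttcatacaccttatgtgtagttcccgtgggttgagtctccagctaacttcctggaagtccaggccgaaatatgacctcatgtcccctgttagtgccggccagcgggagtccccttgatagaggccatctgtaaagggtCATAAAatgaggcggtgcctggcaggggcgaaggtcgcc
The motifs were searched on both strands. The Cdhr5 window held TTTATG, read on the opposite strand, 39 to 34 bases before the start, and 10.8% of all 32851 windows of this length held it. TTTATG is one form of the site of Cdx factors, which set intestinal identity. The other forms, which share its first letters, are TTTATTG, held by 4.20% of all windows, and TTTATTA, held by 4.52%. Neither of these was found in the Cdhr2 or the Cdhr5 window. Also without a match were the E-box CACCTG of Snai and Zeb factors, held by 17.2% of windows, the ETS core CCGGAA, held by 12.0%, and TATAAA, held by 12.4%.

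Cdhr2 read 16.01, 12.03 and 16.25 in the PBS arrays and 3.99, 3.46 and 5.36 in the MBELN arrays. PBS 2 lay well below PBS 1 and PBS 3, as it did for the small intestinal enterocyte markers, whose median was 7.65 in PBS 2 and 18.02 in the other PBS arrays. Whether these values are connected was not tested. The values of MBELN 1 and MBELN 2 were below the receptor level. Cdhr2 fell by 10.49 ± 1.27 (log2, SE, n = 3), with an adjusted p of 0.0113 by limma. Its call ended without PBS 1 (adjusted p = 0.0637 by limma), PBS 3 (0.0594) or MBELN 1 (0.0608).

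Cdhr5 read 18.05, 16.96 and 17.74 in the PBS arrays and 7.06, 3.16 and 5.24 in the MBELN arrays. The PBS arrays were closer together than for Cdhr2, and among the MBELN arrays MBELN 2 was again below the receptor level. Cdhr5 fell by 12.43 ± 1.01 (log2, SE, n = 3), with an adjusted p of 0.00328 by limma, and the call held without any 1 array.

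The other components of the microvillar complex were lower too. All 4 measured partners, Anks4b, Calml4, Myo7b and Ush1c, passed the threshold, with a median difference of -7.63. Over all probe sets, 3.76% passed it with lower values in MBELN. Anks4b, a scaffold protein of the complex, read 10.68, 9.72 and 11.72 over the PBS arrays and 3.56, 3.17 and 3.33 over the MBELN arrays, where all 3 values were below the receptor level. Counted from the PBS mean to the mean receptor level of the MBELN arrays, Anks4b fell at least 84.3-fold. Its adjusted p was 0.0025 by limma. The folds of Calml4 and Myo7b below are counted in the same way. For all 3 genes, the fold counted from PBS 2 alone would be smaller, since PBS 2 lay below the PBS mean. Calml4, a calmodulin-like light chain, read 12.12, 10.21 and 12.25 over the PBS arrays and 4.28, 3.08 and 3.52 over the MBELN arrays, at least 148.7-fold lower. Myo7b, the motor protein that carries the complex to the microvillar tip, read 14.35, 10.01 and 14.73 over the PBS arrays and 4.26, 2.87 and 3.28 over the MBELN arrays, at least 421.5-fold lower. Ush1c, the scaffold harmonin, read 10.57, 7.82 and 10.36 over the PBS arrays and 3.37, 3.27 and 4.97 over the MBELN arrays. MBELN 1 and MBELN 2 were below the receptor level, so the size of its difference, -5.71 ± 0.91 (log2, SE, n = 3; limma, adjusted p = 0.0264), rests in part on values not above background. For each of the 4 partners, as for Cdhr2, PBS 2 was the lowest PBS array. The calls of Anks4b and Calml4 held without any 1 array. Those of Myo7b and Ush1c ended without PBS 1, PBS 3, MBELN 1 or MBELN 3, with adjusted p between 0.0656 and 0.125 (limma).

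Dsg2 and Dsc2 encode the desmoglein and the desmocollin of simple epithelia and of heart muscle. Dsg2 read 13.87, 15.14 and 14.32 in the PBS arrays and 8.13, 3.36 and 9.99 in the MBELN arrays. MBELN 1 and MBELN 3, where heart muscle markers were high, lay above the receptor level, and MBELN 2 lay below it. The difference was -7.28 ± 1.71 (log2, SE, n = 3; limma, adjusted p = 0.0840). Dsc2 read 11.43, 9.04 and 12.46 in the PBS arrays and 7.15, 2.44 and 5.69 in the MBELN arrays. Here MBELN 1 was above MBELN 3, in contrast to Dsg2, and MBELN 2 was again the lowest. Its difference was -5.88 ± 1.47 (adjusted p = 0.0996). For both genes the groups did not overlap, and the adjusted p was under the threshold without MBELN 2, at 0.00535 for Dsg2 and 0.0436 for Dsc2, with differences of -5.38 and -4.55.

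Desmosomal plaque proteins join these cadherins to intermediate filaments. Of 8 measured, 0 passed the threshold (limma), against 5.18% of all probe sets. At an unadjusted p under 0.05, 3 were lower and 1 higher, where 10.6% of all probe sets were lower and 7.21% higher. The 3 were Pkp1 and Pkp3, which are plakophilins, and Evpl, envoplakin. Pkp3 read 6.56, 7.86 and 7.63 over the PBS arrays and 5.10, 2.83 and 3.94 over the MBELN arrays. Pkp1 read 4.94 to 7.45 in PBS and 3.29 to 4.30 in MBELN, where no value reached the receptor level, and Evpl read 6.05 to 6.62 in PBS and 4.44 to 5.38 in MBELN. All 3 were therefore below their PBS values also in MBELN 1 and MBELN 3. The gene with the higher values was Pkp4, a relative of p120-catenin, at 10.11, 8.10 and 10.86 over the PBS arrays and 12.28, 13.36 and 11.34 over the MBELN arrays, highest in MBELN 2. The other 4 did not have an unadjusted p under 0.05. The 2 plaque genes with the widest range over the arrays were Perp and Dsp, both lowest in MBELN 2. Dsp, desmoplakin, which is the main linker of the plaque, read 14.14, 12.54 and 14.39 over the PBS arrays and 13.67, 4.82 and 14.45 over the MBELN arrays. Perp, a membrane protein of the desmosome, read 14.40, 16.01 and 14.36 over the PBS arrays and 13.21, 2.91 and 13.44 over the MBELN arrays. Pkp2, the plakophilin of heart desmosomes, was highest in MBELN 1 and MBELN 3, at 9.21 and 9.94, against 5.39 in MBELN 2 and 6.07 to 7.41 in PBS. Jup, plakoglobin, which is shared by desmosomes and adherens junctions, read 12.09, 8.16 and 12.57 in MBELN and 13.25 to 14.22 in PBS (limma, adjusted p = 0.310). Ppl, periplakin, read 4.53 to 4.81 in PBS and 5.88, 3.66 and 5.64 in MBELN. Ppl, Pkp1, Pkp2, Pkp3, Pkp4, Evpl and Jup were named after their values had been seen. Dsp in MBELN 1 and MBELN 3 was within or just above its PBS range, while Perp, Jup, Dsg2 and Dsc2 on those arrays lay below theirs.

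Cdh2 encodes N-cadherin, which joins heart muscle cells at intercalated discs and neurons at synapses. It read 5.06, 5.61 and 4.56 in the PBS arrays and 13.14, 10.25 and 13.98 in the MBELN arrays. All MBELN arrays were high, those with heart muscle markers and the one with neuronal markers, and MBELN 2 was the lowest of them. Cdh2 rose by 7.38 ± 1.01 (log2, SE, n = 3; limma, adjusted p = 0.0169). The difference was 6.62 or more without any 1 array, but the call ended without PBS 1 (adjusted p = 0.0931 by limma), PBS 3 (0.0914), MBELN 1 (0.0807) or MBELN 3 (0.0586). Cdh1 and Cdh2, the classical cadherins of epithelium and of muscle and nerve, therefore went in opposite directions in each MBELN array against each PBS array.

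Cdh5 encodes VE-cadherin, which seals the junctions of endothelial cells. It read 5.77, 7.07 and 4.90 in the PBS arrays and 13.33, 6.42 and 12.87 in the MBELN arrays. MBELN 1 and MBELN 3 were high, while MBELN 2 lay inside the PBS range. The difference was 4.96 ± 1.96 (log2, SE, n = 3; limma, adjusted p = 0.274), and 7.18 without MBELN 2 (adjusted p = 0.00195). The summed signal of endothelial markers was distributed over the arrays in a similar way. Its log2 was 14.75 and 14.23 in MBELN 1 and MBELN 3, 9.02 in MBELN 2 and 7.19 to 9.23 in PBS. Single markers differed: for 4 of the 9, Kdr, Flt1, Cldn5 and Erg, MBELN 2 lay above every PBS array. Flt1 read 7.89 there and at most 5.46 in PBS. For the other markers, MBELN 2 lay inside the PBS range. Of 9 endothelial markers, 9 were above the receptor level in MBELN 1 and in MBELN 3, 6 in MBELN 2 and 2 to 7 in PBS. Their part in the Cdh5 difference was not tested.

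Cdh13 encodes T-cadherin, which is held in the membrane by a lipid anchor, has no cytoplasmic tail and binds adiponectin on muscle and endothelial cells. It read 3.61, 6.96 and 4.45 in the PBS arrays and 10.65, 8.41 and 10.30 in the MBELN arrays. PBS 2 stood above the other PBS arrays, and the value of PBS 1 was below the receptor level. The difference was 4.78 ± 1.05 (log2, SE, n = 3; limma, adjusted p = 0.0703). It passed the threshold without PBS 2 (5.76, adjusted p = 0.0254) and without MBELN 2 (5.47, adjusted p = 0.0192).

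Cdh11, known as OB-cadherin, is a cadherin of mesenchymal cells that is also made in brain. It read 5.53, 6.03 and 6.15 in the PBS arrays and 8.23, 9.64 and 7.03 in the MBELN arrays. It was the single one of the 4 cadherins with positive differences for which MBELN 2 was the highest array. The difference was 2.40 ± 0.69 (log2, SE, n = 3; limma, adjusted p = 0.143). Fibroblast markers were distributed over the arrays in another way: the log2 of their summed signal was 8.11 in MBELN 2, 20.11 and 20.17 in MBELN 1 and MBELN 3, and 15.11 to 20.24 in PBS, with 4 of 9 markers above the receptor level in MBELN 2 and 9 of 9 in every other array.

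**Figure D3:**
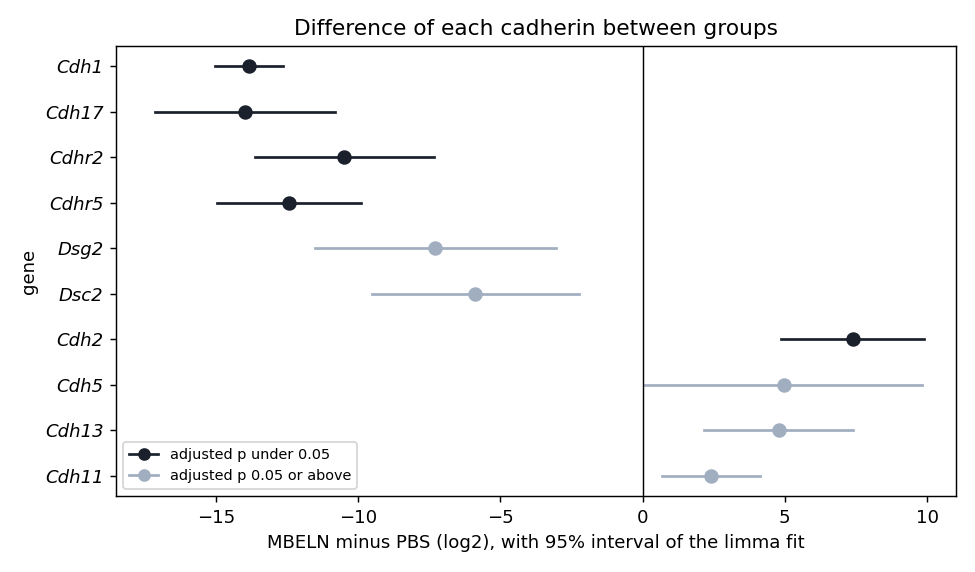
Difference of each cadherin between groups, MBELN minus PBS (log2), with the 95% interval of the limma fit. Genes past an adjusted p of 0.05 are dark and the others grey. Cdh1, Cdh17, Cdhr2 and Cdhr5 lie left of 0 and Cdh2 right of 0, and the interval of Cdh5 is the widest, from 0.08 to 9.83.

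The spread between arrays differed between the cadherins. In PBS the SD ranged from 0.33 for Cdh11 to 2.37 for Cdhr2, and in MBELN from 0.78 for Cdh1 to 3.86 for Cdh5. In MBELN 2, 6 of the 10 cadherins had their lowest value of all arrays and 4 were above the receptor level. In MBELN 1 and MBELN 3, 8 and 10 were above it, and in the PBS arrays 9, 10 and 10. Over all probe sets, 50.3% to 55.2% were above it in each array. Hybridisation control probe sets separated the arrays into a higher level, which held PBS 2 with MBELN 1 and MBELN 3, and a lower level, which held PBS 1 and PBS 3 with MBELN 2. Within each level 1 group is a lone array, and the sign of a difference there is already fixed for the 9 cadherins whose groups do not overlap. Cdh1 differed by -13.85 within the higher and -14.48 within the lower level, Cdh17 by -11.44 and -17.19, Cdhr2 by -7.35 and -12.67 and Cdhr5 by -10.81 and -14.73. Dsg2 differed by -6.08 and -10.73 and Dsc2 by -2.62 and -9.51. Cdh2 differed by 7.95 and 5.44, Cdh5 by 6.03 and 1.08, Cdh13 by 3.52 and 4.38 and Cdh11 by 1.60 and 3.80. With the level as a block, Cdh13 (3.95; limma, adjusted p = 0.0115) and Dsg2 (-8.41, adjusted p = 0.0270) also passed the threshold. Within each group, the level sets apart the same array as the tissue markers do, PBS 2 in PBS and MBELN 2 in MBELN. Across the groups, it joins arrays whose tissue markers differ.

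The genes whose values over the 6 arrays were most like those of each cadherin were found by the root mean square difference of mean-centred values over 10744 genes. For Cdh1 they were Actg2 (0.51 log2 units), Dmbt1 (0.51) and Krt19 (0.56). Krt19 is an epithelial keratin, while Actg2 is the smooth muscle actin of the gut wall. The log2 of the summed signal of 6 smooth muscle markers, Actg2 among them, was 19.23 to 21.29 in PBS and 6.86 to 17.31 in MBELN, and that of 5 leukocyte markers was 15.80 to 17.15 and 8.78 to 17.60. The genes closest to Cdh17 were Pigr, the IgA receptor (0.59), Krt8 (0.65) and Tff3 (0.71). For Cdhr5 they were Muc2 (0.26), Krt20 (0.51) and Slc15a1 (0.51), and for Cdhr2 Pls1 (0.51), Gpx2 (0.71) and Abcg5 (0.76). Dsg2 was closest to Lima1 (0.50), F11r (0.62) and Pmp22 (0.70), and Dsc2 to Pnp (0.57), Nectin2 (0.59) and Mvp (0.67). Cdh2 was closest to Pkia (0.49), Sgcb (0.56) and Rilpl1 (0.61), and Cdh5 to the endothelial receptor Kdr (0.48), Ccng1 (0.48) and Klhl38 (0.49). Cdh13 was closest to Gstm1 (0.54), Rdx (0.65) and Fcrls (0.67), and Cdh11 to Zfp605 (0.28), Mprip (0.28) and Mturn (0.31). No cadherin was among the 3 closest genes of another.

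Catenins and other adherens junction proteins connect the classical cadherins to actin. Of 17 measured, 4 were lower, 0 higher and 13 not past the threshold (limma), against 3.76% lower and 1.42% higher over all probe sets. At an unadjusted p under 0.05, 6 were lower and 0 higher, against 10.6% and 7.21% of all probe sets. The 4 were Actn4, Ctnnd1, Nectin3 and Nectin2. Actn4, an actin crosslinker, read 18.81, 18.46 and 17.76 over the PBS arrays and 13.02, 13.44 and 12.65 over the MBELN arrays, and fell by 5.31 ± 0.40 (log2, SE, n = 3). Ctnnd1, p120-catenin, which keeps cadherins at the cell surface, read 12.37, 11.19 and 12.75 over the PBS arrays and 8.58, 7.95 and 8.04 over the MBELN arrays. It remained above the receptor level in all arrays and fell by 3.91 ± 0.49 (limma, adjusted p = 0.0127). Nectin3 and Nectin2 encode adhesion molecules of the immunoglobulin family that start adherens junctions, and they fell by 5.06 ± 0.64 and 5.86 ± 1.07 (limma, adjusted p = 0.0133 and 0.0406). The Actn4 call held without any 1 array. The calls of Ctnnd1 and Nectin3 ended without PBS 1, PBS 3, MBELN 1 or MBELN 3, with adjusted p between 0.0501 and 0.0782, and that of Nectin2 without PBS 1, PBS 2, PBS 3 or MBELN 3, with adjusted p between 0.0569 and 0.175.

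The catenin forms differed between arrays. Ctnna1, the alpha-catenin of epithelia and other tissues, read 14.48, 14.79 and 14.65 over the PBS arrays and 13.15, 7.94 and 13.83 over the MBELN arrays (limma, adjusted p = 0.404). It was thus lowest in MBELN 2, and it is named after its values had been seen. In the same array the neural forms were high. Ctnna2, the neuronal alpha-catenin, read 12.01 in MBELN 2 and 3.17 to 4.20 in the other 5 arrays. Ctnnd2, the neural delta-catenin, read 12.31 in MBELN 2 and 3.35 to 4.30 elsewhere. Ctnna3, the alpha-catenin of heart muscle, also named after its values had been seen, read 7.06 and 7.41 in MBELN 1 and MBELN 3 and 3.76 to 4.15 in the other 4 arrays. None of the 4 passed the threshold.

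Of 5 measured repressors of Cdh1 transcription, 0 passed the threshold (limma), where 5.18% of all probe sets passed. At an unadjusted p under 0.05, 7.21% of all probe sets were higher, and so was 1 of the 5. This was Zeb1, named after its values had been seen, at 6.74, 9.08 and 7.74 over the PBS arrays and 12.06, 10.18 and 11.67 over the MBELN arrays (adjusted p = 0.0767). Snai2 read 4.53, 5.94 and 4.02 over the PBS arrays and 7.59, 3.67 and 8.63 over the MBELN arrays, so that it was highest in MBELN 1 and MBELN 3 and lowest in MBELN 2 (adjusted p = 0.565 by limma). Snai1, Twist1 and Twist2 lay below the receptor level in all 6 arrays. Of 2 measured proteases that cleave cadherins, 1 passed the threshold (limma), against 5.18% of all probe sets. Adam10 read 11.29, 11.72 and 11.82 over the PBS arrays and 9.64, 9.27 and 9.61 over the MBELN arrays. It fell by 2.10 ± 0.29 (log2, SE, n = 3), with an adjusted p of 0.0171 by limma. Leaving out PBS 1, PBS 3, MBELN 1 or MBELN 3 ended this call (0.0634 to 0.0928). Adam17 read 7.41 to 8.42 in PBS and 6.84, 5.03 and 7.48 in MBELN, and its groups overlapped (adjusted p = 0.336 by limma). Over all 36 measured partner genes, 9 were lower and 0 higher, against 3.76% and 1.42% of all probe sets. At an unadjusted p under 0.05, 14 were lower and 2 higher, against 10.6% and 7.21% of all probe sets. The 2 were Zeb1 and Pkp4. The median difference was -1.53. Without MBELN 2, 14 were lower and 5 higher, and without PBS 2 and MBELN 2 the counts were 17 and 6. Over all 22206 probe sets the number that passed also rose, from 1150 to 3738 and 6769.

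**Figure D4:**
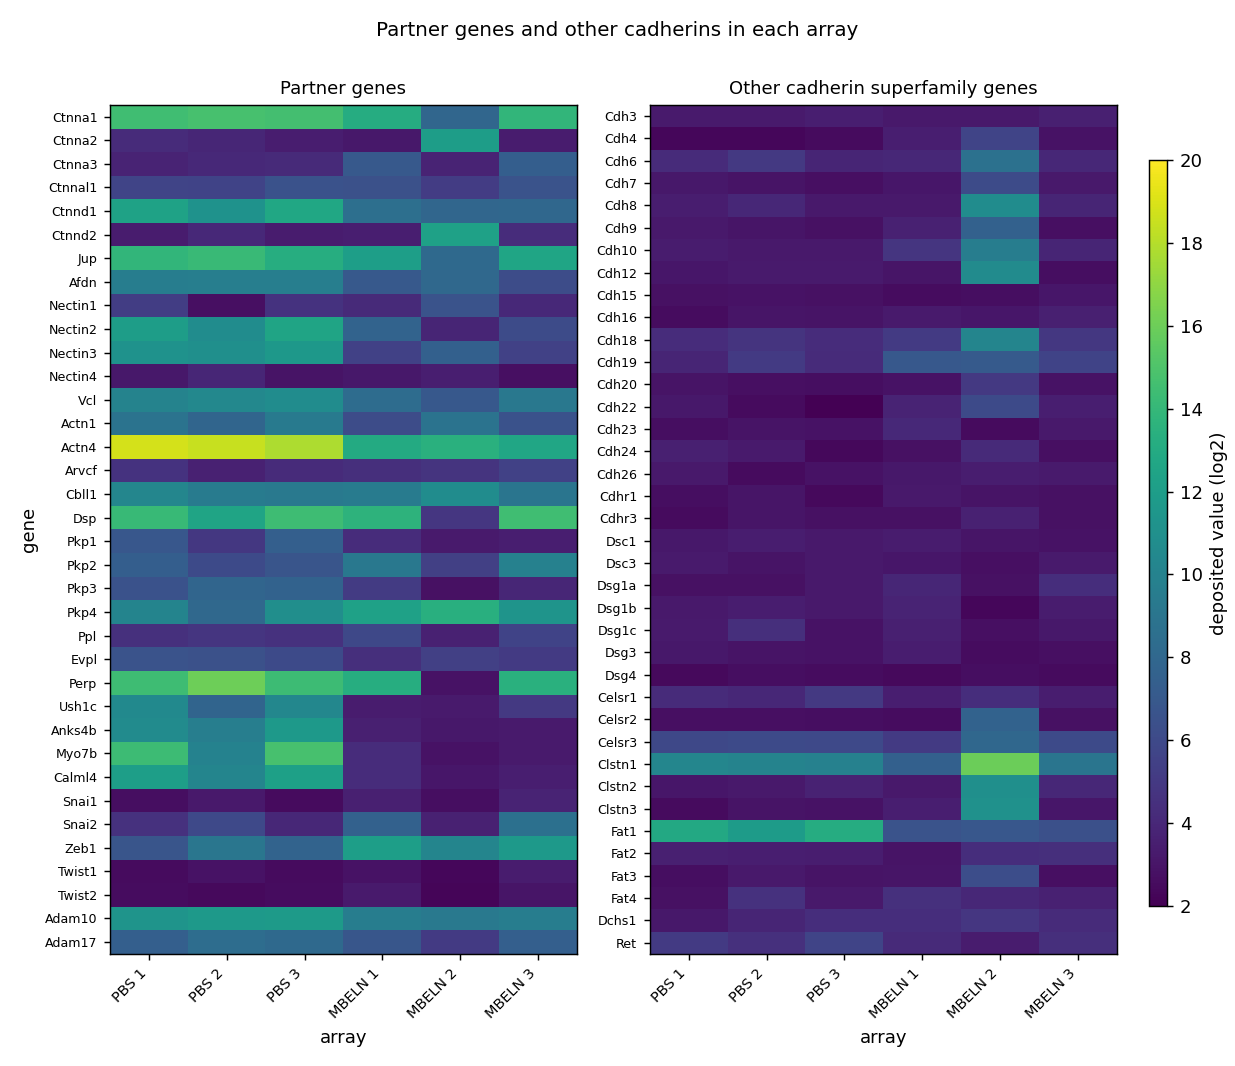
Deposited value (log2, colour) of the 36 measured partner genes (left) and the 38 other measured cadherin superfamily genes (right) in each of the 6 arrays. Each microvillar partner is brighter in every PBS array than in any MBELN array. Dsp, Perp and Jup are darkest in MBELN 2, and several cadherins and calsyntenins are brightest in MBELN 2.

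The rest of the cadherin superfamily differed most in MBELN 2. Of 38 other measured members, 22 were above the receptor level in MBELN 2 and 5 to 9 in each of the other 5 arrays. Over all probe sets, 55.2% were above it in MBELN 2 and 50.3% to 55.0% in the other arrays. The list was thus near the share of all probe sets in MBELN 2 and under it in the other 5 arrays. In all 6 arrays, 13 of the 38 were below the level, against 6405 of all 22206 probe sets. Cdh12 and Cdh8, type II cadherins of neurons, read 10.71 and 10.75 in MBELN 2 and at most 3.33 and 3.99 elsewhere. The calsyntenins Clstn3 and Clstn2, cadherins of synaptic membranes, read 11.13 and 10.98 in MBELN 2 and at most 3.49 and 3.98 elsewhere, and Clstn1 read 15.95 against 7.51 to 10.29. Cdh10 read 9.63 in MBELN 2 and 3.24 to 4.76 elsewhere. A pattern carried by 1 array of 3 gives a wide spread within the MBELN group. Of the 38, 0 were called higher and 1 lower (limma), against 1.42% and 3.76% of all probe sets. At an unadjusted p under 0.05, 1 was higher and 1 lower, against 7.21% and 10.6% of all probe sets. None of these counts was above its share. The higher one was Cdh19, a cadherin of Schwann cells, named after its values had been seen, at 3.85, 5.07 and 4.19 over the PBS arrays and 6.99, 7.10 and 5.60 over the MBELN arrays (adjusted p = 0.106). The single gene past the threshold was Fat1, a giant cadherin that regulates actin, which read 12.87, 11.89 and 13.14 over the PBS arrays and 6.64, 6.87 and 6.41 over the MBELN arrays. It fell by 5.99 ± 0.41 (log2, SE, n = 3), with an adjusted p of 0.00215 by limma and values close together in all 3 MBELN arrays, and the call held without any 1 array. The median difference over the 38 genes was 0.49.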

How the data were processed

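The authors deposited processed values, taken here as log2 signal per probe set in each of 6 arrays, since none is below 0, array medians lie between 4.38 and 4.55 and the highest value is 19.93. The scale is inferred, not stated. Per the submitters' processing notes, Transcriptome Analysis Console 4.0 was used. The labels' protocols name both an Affymetrix cRNA protocol, from 90 ng of RNA, and an AmpliSeq assay, which is a sequencing method, and this is not resolved. How signals were summarized and normalized, and on which genome build, is not given in the sources used here.

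Of 28846 probe sets, 6640 array controls were left out. Of the other 22206, 19572 had 1 gene symbol and 2634 none, and a gene with several probe sets was represented by that with the highest mean. MBELN was compared with PBS in limma 3.58.1 (lmFit, then eBayes; R 4.3.3), two-sided, without covariates, with Benjamini-Hochberg adjustment over 22206 probe sets and 4 residual degrees of freedom. Each value after ± is the SE of the difference between the groups from this fit, with n the number of arrays in each group. Its variance was moderated by eBayes over all probe sets, with 1.66 prior degrees of freedom. The procedure was tested on simulated data. The receptor level of an array is the 95th percentile of its 1412 probe sets for odorant and pheromone receptors (Olfr, Vmn1r and Vmn2r symbols). Where all arrays of 1 group were below it, the fold is given as at least N, from the other group's mean to the mean level, 4.17 in PBS and 4.31 in MBELN. All 10 cadherins passed the filter on dim probe sets, which asks for 3 arrays above the level.

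The members, the partner, family and marker lists and the motifs were chosen with earlier results of these data known. Partner and family genes were named by the smallest p among those past the threshold (up to 6 in each list) and by the largest range over arrays (up to 6 more), and counts of 5 or fewer in the main comparison were named in full. Ctnnb1, Zeb2, Cdhr4, Dchs2 and Pcdh15 are not analysed here. Promoters are from a RefSeq table of GRCm38.p6, and no coordinates of the array were used. Alternatives were other normalizations, variance models, filters, thresholds, array weights, blocks and arrays left out. Another took, for each gene, the probe set with the smallest p. Fits within each hybridisation control level were added after seeing the data. Same-numbered arrays did not deviate together (correlations -0.03, -0.07 and -0.06), so replicate numbers were not taken to pair arrays.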

Additional observations from a re-analysis of the deposited data

How the results depend on the processing

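Of 190 tests, of 10 cadherins under 19 alternatives, 150 stayed on the same side of the threshold, 10 no longer passed it and 30 newly passed it. None changed sign, but several alternatives leave the difference itself as it was. Among the 19, taking the probe set with the smallest p repeats the main result, since each cadherin has a single probe set. Leaving out arrays cannot turn the sign of the 9 cadherins whose groups do not overlap. Cdh1, Cdh17 and Cdhr5 passed in all 19. The count of cadherins lower in MBELN, 4, was 3 to 6 with any 1 array left out and at most 6 in any setting. The count higher, 1, was 2 with the dim filter, 4 with array weights, 0 with the replicate block (Cdh2, adjusted p = 0.0859 by limma), 2 with the hybridisation level as a block, 4 without PBS 2 and MBELN 2, 2 and 0 at thresholds of 0.1 and 0.01, 3 within each hybridisation level, and 0 to 3 with any 1 array left out. Partner genes lower, 9, were 15 with array weights, 4 with the replicate block, 17 without PBS 2 and MBELN 2, 3 at 0.01, 19 within the lower level, and 3 to 14 with 1 array left out. Partner genes higher, 0, were 1 with the dim filter, 6 with array weights, 2 with the level as a block, 6 without PBS 2 and MBELN 2, 1 at 0.1, 5 within each level, and 0 to 5 with 1 array left out. Other cadherins lower, 1, were 2 without PBS 2 and MBELN 2 and within the lower level, and those higher, 0, were 2 with array weights, 1 without PBS 2 and MBELN 2 and 17 within the lower level, where MBELN 2 alone stands for its group and is assumed to vary like the others. Of all probe sets, 1150 passed, against 5757 with array weights, 456 with the replicate block, 6769 without PBS 2 and MBELN 2, 1772 and 407 at 0.1 and 0.01, 4174 and 7234 within the higher and lower level, and 377 to 3738 with 1 array left out, the extremes being PBS 1 and MBELN 2 (379 with PBS 3, 447 with MBELN 3 and 501 with MBELN 1 left out). Array weights were 0.144 for MBELN 2 and 0.519 for PBS 2, the lowest of the 6. The cause of these changes was not tested. Values below the receptor level limit the size of a difference, since their order is not known.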

Other observations

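Cadherin genes that lie next to each other in the order of protein-coding genes had different values over the arrays. Cdh8, Cdh11 and Cdh5 are neighbours. Cdh8 was high in MBELN 2 alone, at 10.75, Cdh11 was highest in MBELN 2 and also above the PBS range in MBELN 1 and MBELN 3, and Cdh5 was high in MBELN 1 and MBELN 3, at 13.33 and 12.87, and inside the PBS range in MBELN 2. Cdh3, which encodes P-cadherin, is the neighbour of Cdh1. It read 3.25 to 3.56 and was below the receptor level in all 6 arrays, also in the PBS arrays where Cdh1 read 17.82 to 18.47. Dsc2 lies between Dsc3 and Dsc1, and Dsg2 beside Dsg3. Of the 7 other desmosomal cadherins measured, which belong to stratified epithelia such as skin, 6 were below the receptor level in all 6 arrays. The other was Dsg1c, above it in PBS 2 alone, at 4.46. These genes were picked by their position next to the 10 cadherins after the values had been seen, and no test was made.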
